A study of Mus musculus with 75 samples.

Results

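Nuclei of leptin receptor (LepRb) cells were compared with the other nuclei of the hypothalamus in fasted mice that received leptin repeatedly (Lep24). The comparison rests on 8 of the 75 samples of the series, chosen by their labels: 2 GFP-positive and 2 GFP-negative ATAC libraries, and 2 GFP-positive and 2 GFP-negative H3K27ac ChIP libraries. All regions with a mean normalized signal of 10 or more over the 16 libraries of an assay were used, which left 31358 of 48634 ATAC regions (64.5%) and 98529 of 126368 H3K27ac regions (78.0%).

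All mice were LepRcre/+; SUN1-sfGFP/+ and at least 2 months old. In this model Cre is made where the leptin receptor gene is active, and it switches on SUN1-sfGFP, a green fluorescent tag on the nuclear envelope. GFP-positive nuclei therefore stand for cells whose receptor driver is, or once was, active, and GFP-negative nuclei hold every other hypothalamic cell type, glia included. Lep24 mice were fasted for 36 h and given leptin at 5 mg/kg after 12, 24 and 34 h of the fast. The other 3 treatments served as the background for these nuclei, each with both sorts and 2 libraries per sort and assay: Lep2 (the same fast with leptin at 34 h alone), Fast (the fast with saline at 12, 24 and 34 h) and Fed (free access to food for 36 h). The sample labels code Lep2 as FasSSL, Fast as FasSSS and Fed as FedSSS, so Lep2 and Fed mice may have received saline injections too. Hypothalami were pooled and 300000 to 540000 nuclei went into each ChIP. The labels do not say whether 2 replicates came from separate pools, so the p-values cover the spread between the deposited libraries and no more, and that spread may be technical.

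Leptin is a hormone of fat tissue whose level falls during fasting. It acts on neurons of the hypothalamus through LepRb, the long receptor form, which signals through the kinase JAK2 and the transcription factor STAT3 and lowers feeding. ATAC-seq reads where DNA is open to a transposase, which marks promoters and enhancers in use, and H3K27ac is an acetyl mark that histones carry at regulatory DNA in use.

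The deposited values are the authors' normalized signal per region and library, and differences are given on the log2(signal + 1) scale as GFP-positive minus GFP-negative. The median signal of the tested regions was 20.4 to 21.7 in the 4 Lep24 ATAC libraries and 38.5 to 40.2 in the 4 Lep24 H3K27ac libraries. Read counts could not be recovered from these values, so the depth is unknown. Replicate 1 of H3K27ac was weakly enriched in both sorts. The log2 signal of the densest 10% of autosomal regions exceeded that of the sparsest 10% by 2.96 in GFP-positive replicate 1 and 2.57 in GFP-negative replicate 1, against 3.88 in GFP-positive replicate 2 and 3.81 in GFP-negative replicate 2. The same weak enrichment was seen in replicate 1 of Lep2 and Fed, 6 libraries in all, so the 2 H3K27ac pairs are kept apart below. Regions are named by mm9 position, since the tables pair none with a gene and no annotation of that build was used here, and for the same reason the sort was not checked against marker genes. In pooled nuclei, a change in the share of a cell type and a change in signal per nucleus cannot be told apart.

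Open chromatin was compared first. A moderated linear model (limma) over the 16 ATAC libraries called 0 of 31358 regions between GFP-positive and GFP-negative nuclei under Lep24 at a Benjamini-Hochberg adjusted p under 0.05 (0% called). At an unadjusted p under 0.05 there were 1826 regions, and the smallest adjusted p was 0.0800. The count was 2 without GFP-negative replicate 1, 1 without GFP-negative replicate 2, 3 without GFP-positive replicate 1 and 13 without GFP-positive replicate 2, each with a lone library assumed to vary like the other groups. For the median region, the 95% interval of the log2 difference reached 0.72 to either side of the estimate before adjustment, and differences well above that also missed the adjusted threshold.

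Sorting the regions by their values, with no test, gave 5694 regions in which both GFP-positive libraries lay above both GFP-negative ones (18.2% of those tested) and 5152 in which both lay below (16.4%). The mean difference was also at least 2-fold in 426 of the first (1.36%) and in 388 of the second (1.24%). With 2 libraries per sort, libraries without a sort difference also separate in this way at a sizeable share of regions. The 5694 and 5152 are therefore not read as counts of sort differences. In the replicate 1 pair GFP-positive nuclei were higher at 50.3% of regions and lower at 49.1%, and in the replicate 2 pair at 49.5% and 49.9%. A difference of at least 2-fold was seen at 3.09% (higher) and 2.84% (lower) in the replicate 1 pair and at 3.56% and 3.12% in the replicate 2 pair, and in both pairs at 148 regions higher (0.472%) and 135 lower (0.431%). The mean difference exceeded the gap between replicates in both sorts at 22.8% of regions. With 2 libraries per sort, libraries without a sort difference also reach this at a sizeable share of regions. The 22.8% is therefore not read as a share of sort differences. Between the 2 replicate pairs, the differences correlated with Pearson's r = 0.19 over 31358 regions, which share 4 libraries and are not independent. The median difference was 0.0068 in the replicate 1 pair and 0 in the replicate 2 pair, so the even balance of higher and lower regions may be set by the authors' scaling and is not read as a result.

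The ATAC regions with the smallest p among those whose groups did not overlap showed several-fold differences in both directions. A region of 789 bp at chr4:109797766-109798554 had 31.9 and 21.1 in GFP-positive nuclei, against 3.9 and 3.2 in GFP-negative nuclei. Both GFP-positive libraries stood at more than 5 times their GFP-negative partner: the log2 difference was 2.57 (SE 0.44, limma adjusted p 0.0800). Its log2 difference over Lep2, Fast and Fed was 1.70, with an adjusted p of 0.000234.

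At chr10:79537321-79538525 the signal was 35.1 and 33.0 in GFP-positive nuclei, against 3.9 and 13.9 in GFP-negative nuclei. The 2 GFP-negative libraries were far apart there, and the log2 difference was 2.04 (SE 0.39, adjusted p 0.177). At chr9:14830594-14831451 the signal was 49.5 and 43.5 in GFP-positive nuclei, against 15.4 and 16.5 in GFP-negative nuclei. Replicates lay close together in both sorts, at a log2 difference of 1.48 (SE 0.29, adjusted p 0.190). At chr14:78459982-78460636 GFP-positive nuclei had 25.5 and 22.4 and GFP-negative nuclei 5.3 and 4.1, a difference of similar size in both pairs.

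The next regions in this order were of the same kind. Signal at chr3:101322561-101323316 was 27.4 and 18.4 in GFP-positive nuclei and 5.3 and 6.0 in GFP-negative nuclei. Signal at chr16:8916048-8916857 was 40.7 and 23.7 in GFP-positive nuclei and 8.2 and 6.0 in GFP-negative nuclei. In each of these the GFP-positive replicates differed more from one another than the GFP-negative ones did. The second chromosome 10 region, chr10:82257653-82258649, had 57.0 and 34.3 in GFP-positive nuclei against 15.4 and 18.2 in GFP-negative nuclei. A chromosome 18 region, chr18:34002079-34002767, had 30.6 and 21.1 in GFP-positive nuclei against 4.6 and 6.0 in GFP-negative nuclei. The chromosome 2 region chr2:172159996-172160547 had 36.3 and 14.5 in GFP-positive nuclei against 6.0 and 4.1 in GFP-negative nuclei, with the widest gap between GFP-positive replicates among these regions by ratio.

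The remaining region of the 10, at chr11:89990886-89991722, differed from the others in its behaviour across treatments. It had 21.0 and 14.5 in GFP-positive nuclei, against 6.8 and 2.2 in GFP-negative nuclei, a log2 difference of 1.89 (SE 0.43, adjusted p 0.281). Its log2 difference over Lep2, Fast and Fed was 0.28 (adjusted p 0.511). The other 9 were called higher in those treatments, where 2.70% of all tested ATAC regions were. They were higher in all 6 pairs behind those calls, which the calls themselves favour. The 10 regions spanned 552 to 1205 bp and 2.55- to 5.94-fold.

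**Figure D1:**
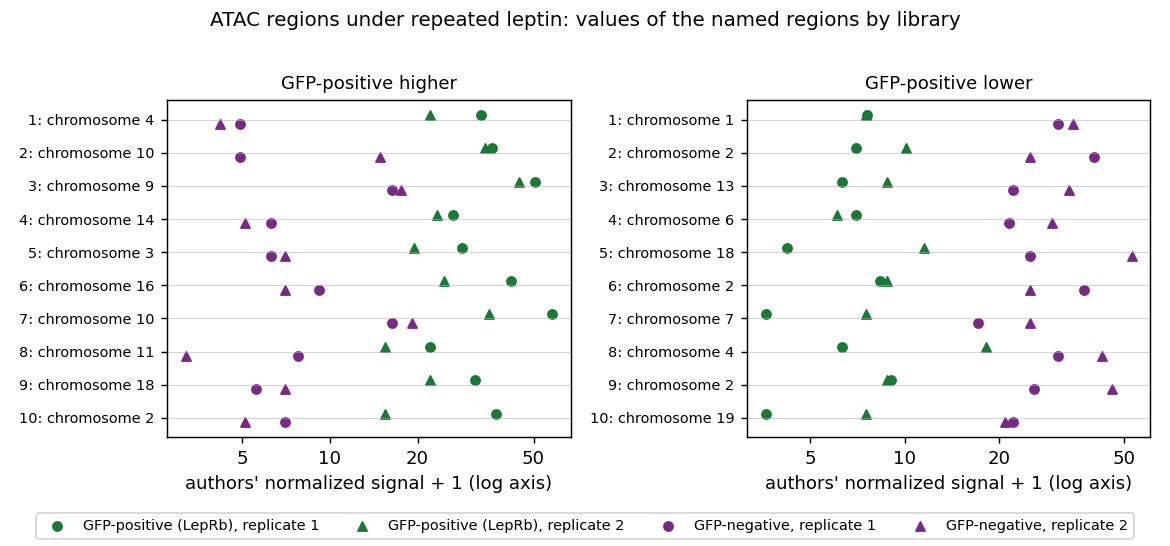
Authors' normalized signal plus 1, on a log axis, of the 10 higher and 10 lower named ATAC regions in each Lep24 library, with GFP-positive libraries in green and GFP-negative ones in purple, circles for replicate 1 and triangles for replicate 2; regions are numbered by p and named by chromosome. In each row the 2 green points lie to 1 side of the 2 purple points, because groups that did not overlap were a condition of the choice.

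Among regions with less open chromatin in GFP-positive nuclei, chr1:122011912-122013039 (1128 bp) led. It had 6.6 and 6.5 in GFP-positive nuclei, against 29.7 and 33.3 in GFP-negative nuclei. Replicates nearly coincided in both sorts, and the log2 difference was -2.10 (SE 0.38, limma adjusted p 0.107). The H3K27ac region over it, chr1:122005856-122013679, had 94.9 and 33.8 in GFP-positive nuclei and 194.1 and 180.0 in GFP-negative nuclei. Both assays were thus lower in GFP-positive nuclei in every library at this place.

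Short regions followed. Signal at chr2:148217183-148217670 was 6.0 and 9.1 in GFP-positive nuclei against 39.0 and 24.1 in GFP-negative nuclei. Signal at chr13:84588657-84589387 was 5.3 and 7.8 in GFP-positive nuclei against 21.1 and 32.4 in GFP-negative nuclei. Neither had an H3K27ac region over it that was lower in both pairs, and the chromosome 13 one overlapped none that was tested. At chr18:68356514-68357065 GFP-positive nuclei had 3.2 and 10.5 and GFP-negative nuclei 24.0 and 51.9, a log2 difference of -2.39 (SE 0.52, adjusted p 0.251). This region also had the smallest p of all regions in Lep2, Fast and Fed together, where its log2 difference was -2.71 (adjusted p 1.07e-05).

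Further down, chr7:30076045-30076662 had 2.6 and 6.5 in GFP-positive nuclei against 16.1 and 24.1 in GFP-negative nuclei. At chr4:134853589-134854448 the values were 5.3 and 17.1 in GFP-positive nuclei and 29.7 and 41.4 in GFP-negative nuclei. H3K27ac over these 2 regions was lower in GFP-positive nuclei in both pairs. The other 4 regions were on chromosomes 2, 6 and 19 and, with those above, the 10 spanned 391 to 1128 bp and 3.38- to 5.23-fold lower signal. Of the 10, 9 were called lower in Lep2, Fast and Fed, where 2.86% of all tested ATAC regions were, and the exception at chr6:71702615-71703332 had 6.0 and 5.1 in GFP-positive nuclei against 20.4 and 28.3 in GFP-negative nuclei under Lep24.

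For H3K27ac, limma over the 16 libraries called 0 of 98529 regions under Lep24 (0% called), with 7964 at an unadjusted p under 0.05 and a smallest adjusted p of 0.346. Without GFP-negative replicate 1 the count was 6, without GFP-positive replicate 1 it was 1, and it was 0 without either replicate 2 library. Without the 6 weakly enriched libraries it was 13347 (6087 higher), and with those libraries as a term it was 10684 (4053 higher). The first of these leaves 1 Lep24 library per sort, whose spread is taken from the other treatments. The authors' deposited table, which uses their own test, holds 2374 H3K27ac regions at an FDR under 0.05 for the same comparison, 629 higher (1.14% of the 55318 with an FDR) and 1745 lower (3.15%). All 2374 had the authors' direction in both replicate pairs, where 31.4% of all tested regions were higher and 30.0% lower, and 2169 had groups that did not overlap, where 16.3% were higher and 18.1% lower. The authors called them from these same libraries, so nothing is read from these counts. For ATAC the authors' deposited table holds 0 such regions, with a smallest FDR of 0.253.

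Acetylation losses outnumbered gains among the larger differences. Both pairs had GFP-positive nuclei higher at 31.4% of regions and lower at 30.0%, but at least 2-fold higher in both pairs at 308 (0.313%) and at least 2-fold lower in both at 824 (0.836%). Without a minimum fold, GFP-positive nuclei were higher at 50.1% and lower at 49.5% of regions in the replicate 1 pair, and at 50.9% and 48.8% in the replicate 2 pair. In the weakly enriched replicate 1 pair 2197 regions were at least 2-fold higher (2.23%) and 2760 lower (2.80%), and in the replicate 2 pair 4850 (4.92%) and 6666 (6.77%). Groups that did not overlap and differed at least 2-fold in the mean numbered 1111 higher (1.13%) and 2713 lower (2.75%). The 2 pairs correlated with Pearson's r = 0.33 over 98529 regions, as a description.

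**Figure D2:**
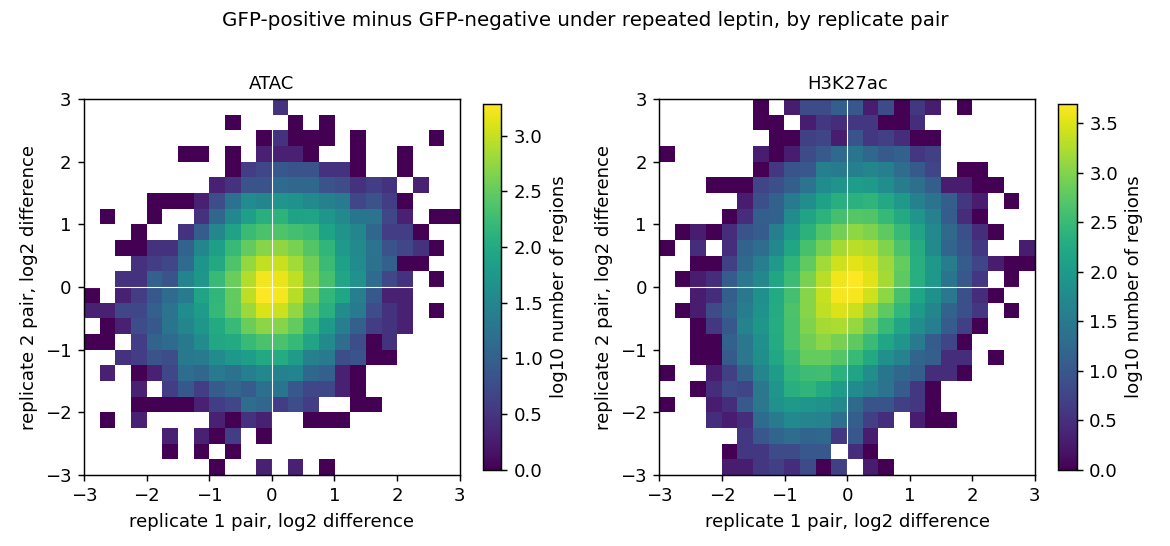
Log2 difference of GFP-positive minus GFP-negative signal under Lep24 in the replicate 1 pair (horizontal) against the replicate 2 pair (vertical), as the log10 number of regions per square of 0.25 log2 units for ATAC and H3K27ac, with values beyond 3 placed in the outermost squares. The ATAC cloud is nearly round (r = 0.19), and the H3K27ac cloud (r = 0.33) extends further to the lower left, where both pairs are lower in GFP-positive nuclei.

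The largest gain in both pairs lay on chromosome 4. The region chr4:101374106-101375083 had 36.1 and 49.6 in GFP-positive nuclei, against 9.5 and 4.5 in GFP-negative nuclei. Signal was 3.53-fold higher in the replicate 1 pair and 9.20-fold higher in the replicate 2 pair, and the combined log2 difference was 2.51 (SE 0.46, limma adjusted p 0.465). A second region among the 10 lay 13912 bp further along, at chr4:101388996-101390831, with 97.8 and 171.2 in GFP-positive nuclei against 21.1 and 56.2 in GFP-negative nuclei. These were the only 2 of the 10 that were called higher in Lep2, Fast and Fed, where 1.45% of all tested H3K27ac regions were, with log2 differences of 1.44 (adjusted p 0.0154) and 1.85 (adjusted p 0.00864).

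The regions around them, chosen after their values were seen, were described as a group. Within 50000 bp on either side, 10 other H3K27ac regions were tested, and in 9 of them both GFP-positive libraries lay above both GFP-negative ones, where 16.3% of all regions did; neighbouring regions are not independent of the 2 that chose the stretch. The largest by length, chr4:101353935-101374105 (20171 bp), had 419.1 and 354.0 in GFP-positive nuclei against 310.8 and 134.2 in GFP-negative nuclei. It directly adjoins the leading region, and on the other side of that region chr4:101375084-101380705 had 112.4 and 88.0 in GFP-positive nuclei against 68.9 and 28.4 in GFP-negative nuclei. The 1 exception, chr4:101432449-101435633, had 39.7 and 45.9 in GFP-positive nuclei and 59.1 and 19.0 in GFP-negative nuclei, so that its 2 pairs went opposite ways.

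The stretch holds 1 tested ATAC region, chr4:101358806-101359463. It had 31.9 and 18.4 in GFP-positive nuclei, against 11.1 and 13.1 in GFP-negative nuclei. Openness there was higher in both pairs, with a log2 difference of 0.95 (SE 0.33, limma adjusted p 0.607), and it was called higher over Lep2, Fast and Fed (log2 difference 1.36, adjusted p 0.000129). Of the 10 neighbouring H3K27ac regions, 4 were called higher in those treatments, where 1.45% of all regions were, and 0 lower, where 3.99% were. Their median log2 difference under Lep24 was 0.17 in the replicate 1 pair and 1.03 in the replicate 2 pair, beside 0.0040 and 0.02 over all regions.

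The other 8 H3K27ac regions with the largest gains in both pairs were low in signal. At chr15:59120244-59121532 GFP-positive nuclei had 20.2 and 18.3 and GFP-negative nuclei 5.3 and 4.5. At chr6:70663781-70664759 GFP-positive nuclei had 16.8 and 26.2 and GFP-negative nuclei 4.3 and 7.8. Their log2 differences over Lep2, Fast and Fed were 0.48 (adjusted p 0.225) and 0.21 (adjusted p 0.580), and none of these 8 was called there. The region at chr14:20404085-20404645 had 7.6 and 31.0 in GFP-positive nuclei against 1.4 and 9.4 in GFP-negative nuclei, so the libraries of 1 sort differed more than the sorts within a pair.

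Among the 10 regions with the largest acetylation losses in both pairs, 3 were called lower in Lep2, Fast and Fed, where 3.99% of all tested H3K27ac regions were. The region chr2:44967138-44968745 had 11.7 and 16.3 in GFP-positive nuclei, against 49.5 and 131.2 in GFP-negative nuclei. Its log2 difference was -2.46 (SE 0.54, limma adjusted p 0.465) under Lep24 and -2.28 (adjusted p 0.00762) in the other treatments. The region chr19:56027299-56028652 had 7.6 and 8.1 in GFP-positive nuclei, against 33.6 and 34.6 in GFP-negative nuclei. It had the smallest adjusted p of all H3K27ac regions under Lep24 (0.346) at a log2 difference of -1.99 (SE 0.28), and -1.17 in the other treatments (adjusted p 0.00975).

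The third, chrX:17984380-17986763, had 10.1 and 9.2 in GFP-positive nuclei against 38.9 and 40.8 in GFP-negative nuclei. Its values in replicates 1 and 2 were near each other in spite of the weak enrichment of replicate 1. At chr10:98718616-98719959, GFP-positive nuclei had 6.8 and 5.9 and GFP-negative nuclei 32.4 and 30.0. Replicates nearly coincided and the log2 difference was -2.13 (SE 0.47) under Lep24, but over Lep2, Fast and Fed it was -0.18 (adjusted p 0.798). The region chr4:145591930-145615018 had 0 in both GFP-positive libraries and only 6.3 and 2.9 in GFP-negative ones, so no fold is given.

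**Figure D3:**
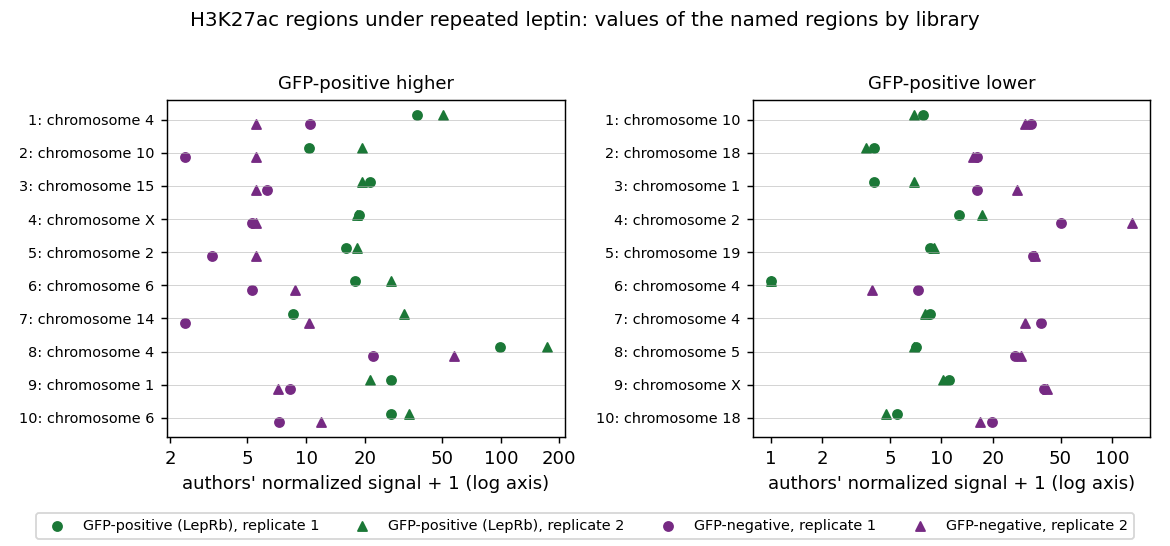
Authors' normalized signal plus 1, on a log axis, of the H3K27ac regions with the 10 largest gains and 10 largest losses in both replicate pairs under Lep24, with GFP-positive libraries in green and GFP-negative ones in purple, circles for replicate 1 and triangles for replicate 2; regions are numbered in that order and named by chromosome. The regions were chosen for these values; the lower region 4, on chromosome 2, reaches 131.2 in GFP-negative replicate 2 against 16.3 in GFP-positive replicate 2.

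Long acetylated regions showed losses but few gains. In the longest 25% of H3K27ac regions (5260 bp and more), 661 had groups that did not overlap and a mean difference of at least 2-fold with GFP-positive nuclei lower (2.68%), and 16 with GFP-positive nuclei higher (0.0650%). In the shortest 25% (286 to 1503 bp) the counts were 789 lower (3.20%) and 704 higher (2.86%). At least 2-fold in both pairs, the longest 25% had 157 lower (0.637%) and 4 higher (0.0162%). By that measure the shortest 25% had 270 lower (1.10%) and 218 higher (0.885%). The part of the weakly enriched replicate 1 and of the authors' scaling in this balance was not tested. ATAC regions did not show this asymmetry: the shortest 25% had 212 lower (2.70%) and 199 higher (2.54%), and the longest 25% had 5 lower (0.0638%) and 17 higher (0.217%). The short regions also had the lower signal, with a median of 14.5 in the shortest 25% of H3K27ac regions against 161 in the longest 25%.

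**Figure D4:**
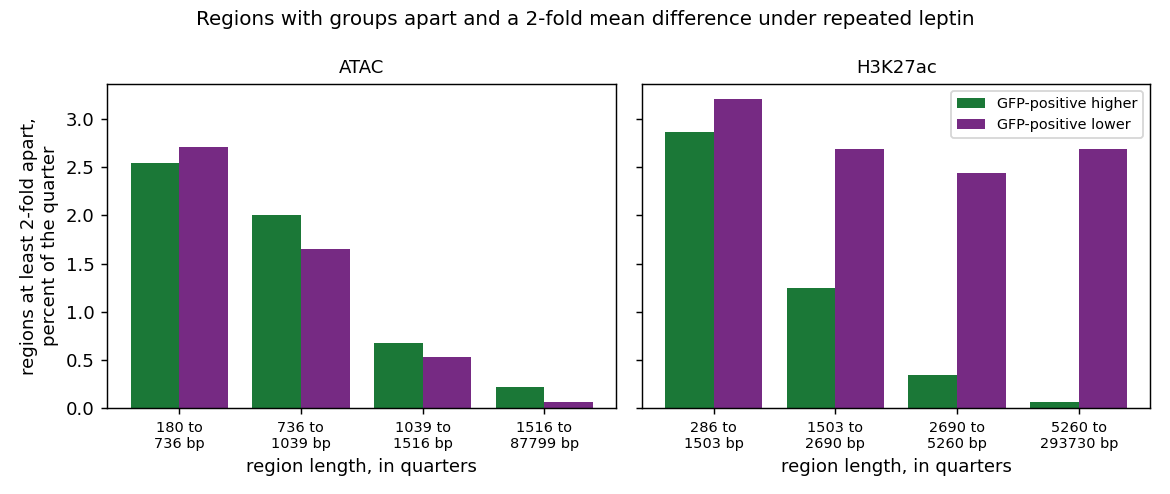
Percent of ATAC and H3K27ac regions in each 25% class of region length whose Lep24 groups did not overlap and whose means differed at least 2-fold, with GFP-positive higher in green and GFP-positive lower in purple. H3K27ac losses stay between 2.44% and 3.20% in the 4 classes, while H3K27ac gains are 2.86% in the shortest and 0.0650% in the longest.

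The long regions of loss with the most signal, chosen after their values were seen, are described next. The 84938 bp region chr17:10626397-10711334 had 1098 and 408.4 in GFP-positive nuclei, against 2579 and 2178 in GFP-negative nuclei. Signal was lower by 2.35-fold in the replicate 1 pair and by 5.32-fold in the replicate 2 pair. The 62028 bp region chr2:44901034-44963061 had 551.8 and 262.4 in GFP-positive nuclei, against 1432 and 1414 in GFP-negative nuclei. It lies just before the short chromosome 2 region described above, and both were called lower in Lep2, Fast and Fed, the long one with a log2 difference of -2.06 (limma adjusted p 0.00990).

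Other long regions had the same pattern. At chr10:40168652-40223015 GFP-positive nuclei had 583.5 and 263.2 and GFP-negative nuclei 1443 and 1163. At chr4:104835855-104894551 GFP-positive nuclei had 735.7 and 317.9 and GFP-negative nuclei 1482 and 1080. In each, the difference was larger in the replicate 2 pair than in the weakly enriched replicate 1 pair. At chr8:87235240-87277765 GFP-positive nuclei had 881.1 and 443.8 and GFP-negative nuclei 1506 and 1305.

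Long gains were weaker. A 24997 bp region, chr13:117081229-117106225, had 1118 and 1449 in GFP-positive nuclei, against 618.6 and 668.1 in GFP-negative nuclei. The groups were well apart and the log2 difference was 0.98 (SE 0.19, limma adjusted p 0.465), just under 2-fold; in Lep2, Fast and Fed it was 0.97 (adjusted p 0.00762). The open region inside it, chr13:117099320-117100462, had 38.2 and 31.7 in GFP-positive nuclei against 22.5 and 21.6 in GFP-negative nuclei. At chr3:118131207-118140682 H3K27ac was 660.4 and 995.0 in GFP-positive nuclei against 258.3 and 631.5 in GFP-negative nuclei.

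To see whether sort differences found without leptin, or with a single dose, held under repeated leptin, regions were chosen in the 12 libraries of Lep2, Fast and Fed and read in the 4 Lep24 libraries, which took no part in the calls, only in the filter on mean signal. Limma called 1742 ATAC regions there (5.56%) and 5364 H3K27ac regions (5.44%). Of 846 ATAC regions called higher (2.70% of those tested), 90.0% were higher in the Lep24 replicate 1 pair and 79.0% in the replicate 2 pair. Both pairs were higher at 70.9%, where 27.1% of all tested regions were. Their median log2 difference was 0.70 in the replicate 1 pair and 0.45 in the replicate 2 pair under Lep24, beside 0.86 in the libraries that chose them. Of 896 called lower (2.86%), both Lep24 pairs were lower at 81.0%, where 26.7% of all regions were, with medians of -0.82 and -0.46 beside -0.98. The Lep24 values were smaller than those of the choosing libraries, where selection favours large values.

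H3K27ac regions also mostly kept the called direction, here more often in the replicate 2 pair than in the replicate 1 pair. Of 1433 regions called higher in Lep2, Fast and Fed (1.45%), 76.3% were higher in the Lep24 replicate 1 pair and 96.3% in the replicate 2 pair, and 74.0% in both, where 31.4% of all regions were. Of 3931 called lower (3.99%), 91.6% were lower in the replicate 1 pair, 97.9% in the replicate 2 pair and 90.0% in both, where 30.0% of all regions were. The median differences of the higher list were 0.30 and 0.75 under Lep24, beside 0.75 in the choosing libraries, and its groups did not overlap at 66.2%, where 16.3% of all regions had GFP-positive higher in that way. The median differences of the lower list were -0.54 and -1.14 under Lep24, beside -0.99 in the choosing libraries. Unlike in ATAC, the replicate 2 median of this list was larger in size than that of the choosing libraries. GFP-positive and GFP-negative libraries did not overlap at 85.1% of this list, where 18.1% of all regions had GFP-positive lower in that way. In replicate 1, GFP-negative nuclei were less enriched than GFP-positive nuclei in Fed (2.52 against 2.98), Lep2 (2.31 against 2.66) and Lep24 (2.57 against 2.96). The choosing and the reading libraries thus share this gap, and its part in the kept direction was not tested. The lists were sensitive to single libraries: without Fast GFP-negative replicate 1, 0 H3K27ac regions were called, and without Lep2 GFP-positive replicate 1, 9506 were.

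The other treatments were read in the same way for comparison, each from regions called in the remaining 3 treatments, Lep24 included; these lists share libraries, so the shares stand side by side with no test. For ATAC, both pairs kept the called direction in Lep2 at 84.8% of higher regions (1.66% of regions were called) and 91.0% of lower ones (1.85%). In Fast the shares were 73.2% of higher (2.63% called) and 80.6% of lower regions (2.65% called), and in Fed 73.5% (2.23% called) and 84.3% (2.29% called). The Lep24 shares of 70.9% and 81.0% thus lay close to those of Fast and Fed. Over all tested ATAC regions, both pairs were higher at 31.5% in Lep2, 29.5% in Fast, 29.0% in Fed and 27.1% in Lep24. They were lower at 29.3%, 26.8%, 26.5% and 26.7%. For H3K27ac the shares in Lep2 were 68.1% of higher (3.42% called) and 72.8% of lower regions (6.75% called), and in Fed 75.9% (1.62% called) and 86.9% (4.43% called). Over all tested H3K27ac regions, both pairs were higher at 30.9% in Lep2 and 30.0% in Fed, and lower at 28.3% and 29.2%. With Fast left out of the choice, 0 H3K27ac regions were called.

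**Figure D5:**
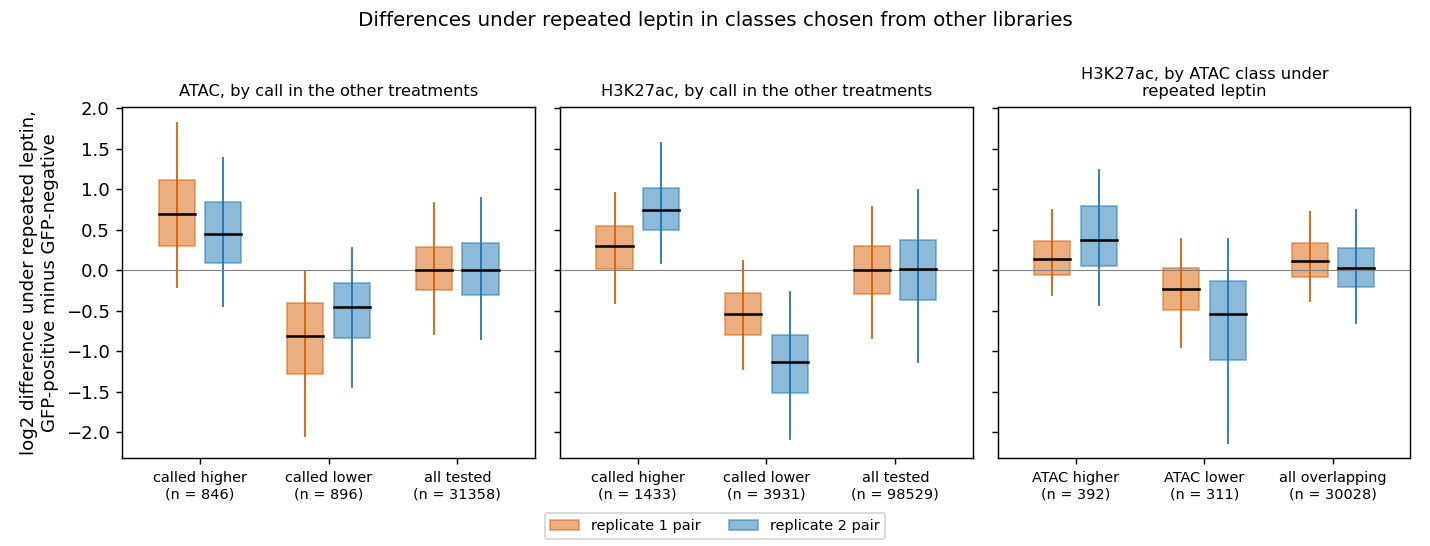
Log2 difference of GFP-positive minus GFP-negative signal under Lep24 by replicate pair, with the median (line), the 25th to 75th percentile (box) and the 5th to 95th percentile (whisker) over regions. The first 2 panels sort ATAC and H3K27ac regions by their call in Lep2, Fast and Fed. Each called class there is displaced from all regions in its own direction in both pairs. The third panel sorts H3K27ac regions by the class of the ATAC region they overlap, set by values with no test. There the ATAC-higher class has a replicate 1 median of 0.14 beside 0.11 over all overlapping regions. Its replicate 2 median and both medians of the ATAC-lower class are displaced further in the class direction.

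The regions with the smallest p in the other treatments were read in the same way. The ATAC region chr2:157521665-157522613 had 45.8 and 29.0 in GFP-positive nuclei under Lep24, against 13.9 and 18.2 in GFP-negative nuclei. Its log2 difference was 1.15 (SE 0.30, limma adjusted p 0.421), beside 1.54 in Lep2, Fast and Fed (adjusted p 2.28e-05). H3K27ac over it was 50.6 and 65.0 in GFP-positive nuclei against 21.1 and 25.3 in GFP-negative nuclei. The region chr16:24282193-24282764 had 5.3 and 13.1 in GFP-positive nuclei against 26.8 and 48.7 in GFP-negative nuclei, a log2 difference of -1.98 (SE 0.57) beside -2.93 in the other treatments. The region chr6:85806164-85806613 kept least of its difference among the 10 ATAC regions named this way: it had 4.6 and 14.5 in GFP-positive nuclei against 8.2 and 19.9 in GFP-negative nuclei, a log2 difference of -0.57 (SE 0.52, adjusted p 0.982) beside -2.55 in the other treatments.

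In H3K27ac, chr9:69608766-69619485 had 102.7 and 105.4 in GFP-positive nuclei under Lep24, against 266.7 and 364.2 in GFP-negative nuclei. The log2 difference was -1.57 (SE 0.27) under Lep24 and -1.69 (limma adjusted p 0.00762) in Lep2, Fast and Fed. At chr10:40232387-40235418 GFP-positive nuclei had 37.0 and 30.0 and GFP-negative nuclei 61.9 and 138.7, a log2 difference of -1.45 (SE 0.35) beside -2.00. At chr12:58636544-58643354 GFP-positive nuclei had 140.8 and 204.2 and GFP-negative nuclei 97.9 and 81.9, a log2 difference of 0.91 (SE 0.33) beside 1.53.

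Whether the sort difference under Lep24 departed from that in the other treatments was tested as an interaction over the 16 libraries. Limma called 0 of 31358 ATAC regions and 0 of 98529 H3K27ac regions (0% in each), with 562 and 1578 at an unadjusted p under 0.05 and a smallest adjusted p of 1.00 in each. The 95% interval reached 0.83 log2 units for the median ATAC region and 0.94 for the median H3K27ac region before adjustment, and departures well above that also missed the adjusted threshold. Single libraries hardly moved the counts: 1 ATAC region was called without GFP-positive replicate 1 and 1 H3K27ac region without GFP-negative replicate 1, and 20 H3K27ac regions without the 6 weakly enriched libraries.

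The regions with the smallest interaction p that the rule named are given as values. The ATAC region chr15:82632322-82633762 had 8.0 and 7.8 in GFP-positive nuclei, against 25.4 and 24.1 in GFP-negative nuclei, under Lep24. Its log2 difference was -1.53 under Lep24 and 0.05 over Lep2, Fast and Fed, a departure of -1.58 (SE 0.43, limma adjusted p 1.00). H3K27ac over it was 300.8 and 229.4 in GFP-positive nuclei against 295.4 and 254.4 in GFP-negative nuclei, with no difference of that size. The ATAC region chr2:163544297-163545807 had 22.3 and 31.7 in GFP-positive nuclei against 13.9 and 10.4 in GFP-negative nuclei. All 6 pairs of the other treatments were on the lower side, which the choice by interaction p favours. H3K27ac over the region was 472.8 and 355.6 in GFP-positive nuclei against 560.9 and 546.7 in GFP-negative nuclei, lower in both pairs.

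The H3K27ac region chr11:76201644-76203365 had 35.2 and 40.4 in GFP-positive nuclei, against 12.8 and 12.7 in GFP-negative nuclei. The log2 difference was 1.49 under Lep24 and -0.13 in the other treatments, a departure of 1.62 (limma adjusted p 1.00). The region chr5:50446805-50447908 had 6.1 and 5.9 in GFP-positive nuclei against 26 and 28.4 in GFP-negative nuclei, a log2 difference of -2.01 beside -0.23. Replicates nearly coincided in both regions, but neither departure passed the adjustment over all regions.

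Openness and acetylation were then compared at the same places. Of the 31358 ATAC regions, 30028 overlapped a tested H3K27ac region by at least 1 bp (95.8%), and the H3K27ac region with the largest overlap was read. Of the 426 ATAC regions at least 2-fold higher in GFP-positive nuclei with groups apart, 392 had such a partner, and H3K27ac was higher in both pairs at 62.0% of them, where 41.9% of all overlapping regions were. Their median H3K27ac log2 difference was 0.14 in the replicate 1 pair and 0.38 in the replicate 2 pair, beside 0.11 and 0.02 over all. Of the 388 lower ones, 311 had a partner, and H3K27ac was lower in both pairs at 66.6%, where 24.9% of all were, with medians of -0.23 and -0.54. Acetylation thus differed in the direction of openness, by less than the 2-fold that defined the ATAC classes. For the higher class, the replicate 1 median was barely above that of all overlapping regions.

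Individual places differed in how far the assays went together. Over the leading chromosome 4 gain, H3K27ac at chr4:109791396-109799823 was 155.7 and 142.9 in GFP-positive nuclei, against 140.3 and 78.9 in GFP-negative nuclei. Over the gain at chr10:82257653-82258649, H3K27ac was 101.7 and 141.2 in GFP-positive nuclei, against 50.9 and 80.4 in GFP-negative nuclei. Both GFP-positive libraries lay above both GFP-negative ones at each of these, with a smaller ratio than in ATAC. All 10 gains named first had an H3K27ac partner. It was higher in both pairs at 8 of them, where 41.9% of all overlapping regions were. At chr14:78459982-78460636 and chr2:172159996-172160547 it was lower in the replicate 1 pair. At the 6 of the 8 with the smallest ATAC p, the H3K27ac groups did not overlap either. Of all tested H3K27ac regions, 16.3% had GFP-positive higher in that way, but most H3K27ac regions overlap no tested ATAC region, so this base is unlike the 6. The choice of these 6 by higher H3K27ac in both pairs favours that outcome.

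Of the 10 losses named first, 7 had an H3K27ac partner. It was lower in both pairs at 5 of them, where 24.9% of all overlapping regions were. At chr6:71702615-71703332 it was higher in both pairs, with 250 and 197.6 in GFP-positive nuclei against 218.5 and 193.2 in GFP-negative nuclei. The places that follow were named for lower H3K27ac in both pairs, so they do not show how often the assays went together. Over the loss at chr4:134853589-134854448, H3K27ac at chr4:134852707-134856221 was 44.2 and 31.0 in GFP-positive nuclei, against 87.6 and 95.4 in GFP-negative nuclei. Over chr7:30076045-30076662 it was 207.0 and 111.4 in GFP-positive nuclei, against 244.9 and 312.3 in GFP-negative nuclei. Over chr18:68356514-68357065 it was 96.9 and 131.0 in GFP-positive nuclei, against 108.3 and 219.5 in GFP-negative nuclei, where the groups overlapped although each pair was lower. The region chr5:134981444-134982561 had ATAC signal of 5.3 and 14.5 in GFP-positive nuclei against 28.3 in each GFP-negative library, while the long H3K27ac region over it had 1947 and 1441 in GFP-positive nuclei against 2320 and 1879 in GFP-negative nuclei.

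Without the minimum fold, the shares were lower in both directions. Among the 4860 partnered ATAC regions whose GFP-positive libraries lay below the GFP-negative ones, H3K27ac was lower in both pairs at 33.7%, where 24.9% of all overlapping regions were. Among the 5446 that lay above, it was higher in both at 52.3%, where 41.9% of all were. Across all 30028 overlapping pairs of regions, the ATAC replicate 1 difference had a Spearman's rho of 0.15 with the H3K27ac replicate 1 difference and 0.29 with the replicate 2 difference. The ATAC replicate 2 difference had -0.0039 and 0.07. These are descriptions over regions that share 8 libraries, and the share of ATAC signal on the mitochondrial genome, 5.91% and 9.03% in GFP-positive replicates 1 and 2 against 6.85% and 6.34% in GFP-negative ones, was highest in GFP-positive replicate 2; its part in this difference was not tested.

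Most strong acetylation losses overlapped no tested ATAC region. Of the 824 H3K27ac regions at least 2-fold lower in both pairs, 30 overlapped a tested ATAC region (3.64%), where 23.8% of all H3K27ac regions did. Openness was lower in both ATAC pairs at 21 of those 30 (70.0%, where 27.2% of all overlapping H3K27ac regions were), with median log2 differences of -0.97 and -0.67. Of the 308 regions at least 2-fold higher in both pairs, 66 overlapped an ATAC region (21.4%), and openness was higher in both pairs at 35 (53.0%, where 27% of all overlapping ones were). H3K27ac regions that overlap open chromatin had a median signal of 158, against 29.0 in those that do not, and losses with groups apart and at least 2-fold made up 0.795% of the first and 3.36% of the second.

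Isolated regions showed the same tilt. Among the 26961 tested H3K27ac regions that touch no neighbour, 4.51% were lower in GFP-positive nuclei with groups apart and at least 2-fold and 1.22% were higher. Among the 71568 that touch a neighbour, 2.09% were lower and 1.09% higher. At least 2-fold in both pairs, 1.58% of the isolated regions were lower and 0.274% higher, against 0.558% and 0.327% of the touching ones. The median log2 difference of the isolated regions was -0.08 in the replicate 1 pair and 0.04 in the replicate 2 pair, so the tilt lay in the larger differences. Enrichment in replicate 1 differed between the sorts, and its part in the tilt was not tested. Of the 1330 ATAC regions with no tested H3K27ac region over them, 5.79% were lower and 2.56% higher, against 1.04% and 1.31% of those with one.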

How the data were processed

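Per the file headers, the authors deposited a normalized signal for each region and library in each assay; how they normalized it is not stated in any source used here, and 32 per-library columns of stabilized values were not used. The submitters' processing notes name mm9 and the tools DESeq2 1.16.1, HTSeq 0.6.0, MACS2, Bowtie2 2.2.6, Bowtie 1.2, STAR 2.5.2b and CASAVA 1.8, and tie none of them to an assay. Log2 fold changes and FDR-adjusted p-values of the authors' own comparisons, deposited beside the signal, are quoted as theirs alone. Values have 1 decimal on uneven steps, so counts could not be recovered. A signal ratio can move with sorting purity, the share of a cell type, enrichment and the authors' scaling.

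Regions with a mean of 10 or more were taken to log2(signal + 1), which understates fold changes of low regions, and fitted with limma 3.58.1 (R 4.3.3) with an intensity trend, 8 groups of 2 libraries and 8 residual degrees of freedom. Tests were two-sided, with Benjamini-Hochberg adjustment over all regions tested and a threshold of 0.05. The other treatments were fitted on their own 12 libraries. Overlaps used GenomicRanges 1.54.1 and needed 1 bp. Starts were raised by 1 so that positions count from 1. Plots used matplotlib, and the fit was tested on simulated data.

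Libraries were grouped by their labels. Named regions were, for ATAC, the 10 higher and 10 lower with groups that did not overlap and the smallest limma p; for H3K27ac, the 10 and 10 with the same sign in both pairs and the largest smaller difference; the 6 and 6 with both assays alike; the 5 and 5 per assay with the smallest p in the other treatments; and the 3 and 3 with the smallest interaction p. The comparison, lists and tests were chosen with earlier results of these data known. Alternatives were pseudocounts of 0.1 and 5, other filters, quantile normalization, median centring, library weights, replicate blocks, and libraries left out. Gene panels and cell type markers were not run, since no mm9 annotation was used here. RNA and input samples were not analysed here.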

Additional observations from a re-analysis of the deposited data

How the results depend on the processing

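Precision is limited by 2 libraries per group and by the weakly enriched H3K27ac replicates. For Lep24 GFP-positive against GFP-negative, ATAC calls were 8 with no filter on low signal, 2 with quantile normalization and 2 with library weights; they were 1 to 13 with 1 Lep24 library left out and 0 under the pseudocounts, the other filters, median centring and a fit of the 4 libraries alone. With the replicate number as a block they were 6 for ATAC and 0 for H3K27ac, and with the pair of libraries as a block 9 and 2433; same-numbered libraries deviated together with r = 0.15 and 0.44, which with 2 pairs does not show a pairing. H3K27ac calls were 13347 without the 6 weak libraries, 10684 with these as a term, 0 to 6 with 1 library left out and 0 otherwise. Interaction calls were 5 for ATAC with no filter, 20 for H3K27ac without the weak libraries, 0 to 1 with 1 library left out and 0 otherwise, both blocks included. The cause of these moves was not tested.

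The share of called ATAC regions, 76.1% with both Lep24 pairs in the called direction, was 78.3% with a pseudocount of 0.1, 79.5% with no filter, 78.1% with median centring, 86.9% at an adjusted p under 0.01 and 68.9% to 92.6% with libraries or a pair left out. For H3K27ac, 85.7% was 87.1% with no filter, 97.5% at 0.01, 70.2% without the weak libraries and 84.4% to 97.4% with libraries or a pair left out. The lists themselves changed: 1742 ATAC regions were called, but 750 with no filter, 544 at 0.01, 1051 when Fed GFP-positive replicate 2 was dropped, 796 when Fed GFP-negative replicate 2 was, 1090 or 767 on dropping replicate 1 or 2 of Fast GFP-negative, and 1024 or 858 on dropping replicate 1 or 2 of Lep2 GFP-negative. For H3K27ac the count was 5364, 31692 without the weak libraries and 406 at 0.01, and dropping replicate 1 or 2 left 3061 or 602 for Fed GFP-positive, 541 or 1062 for Fast GFP-positive, 0 or 497 for Fast GFP-negative and 9506 or 3017 for Lep2 GFP-positive; dropping Lep2 GFP-negative replicate 2 left 2390.

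H3K27ac followed both directions of the 2-fold ATAC classes at 64.0% of partners, 74.7% with a pseudocount of 5, 43.5% with no minimum fold, 68.6% at 3-fold, and 71.3% to 79.4% with 1 H3K27ac pair alone. Losses in the longest 25% of H3K27ac regions were 2.68%, and 2.35% with a pseudocount of 5. Of 892 values for 59 named regions, 93 passed the threshold under an alternative and 2 reversed: the log2 difference at chr6:85806164-85806613 was 0.16 with GFP-positive replicate 1 dropped and 0.02 with GFP-negative replicate 2 dropped, and -1.31 to 0.16 over the 4 libraries. Alternatives leaving out libraries of the other treatments, 1 pair, or the weak libraries in the choice of lists, and those for region length, were chosen after seeing the data.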

Other observations

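Acetylation on the X chromosome was higher in GFP-positive nuclei as a whole. Over its 1438 tested H3K27ac regions the median log2 difference under Lep24 was 0.22 in the replicate 1 pair and 0.25 in the replicate 2 pair, beside 0 and 0.01 on the autosomes. The X median was above 0 in all 8 pairs of the 4 treatments, at 0.11 to 0.31. On the 27 tested Y regions the Lep24 medians were -1.63 and -0.52, and over the other treatments they took both signs. ATAC did not show the X shift: over 547 X regions its Lep24 medians were 0.03 and -0.18. The labels used here do not give the sex of the mice in each pool.

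Neighbouring H3K27ac regions that touch lay on the same side in some places. Of 2615 chains with at least 5 tested pieces, every piece was higher in both Lep24 pairs in 27 (1.03%) and lower in 62 (2.37%). The 8 pieces of chr3:101580222-101613809 summed to 899.9 and 881.6 in GFP-positive nuclei, against 520.4 and 518.5 in GFP-negative nuclei. The 9 pieces of chr8:83296597-83399472 summed to 1236 and 768.6 in GFP-positive nuclei, against 2150 and 2243 in GFP-negative nuclei.

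One H3K27ac region, chr2:98502227-98507677, held 1.55% and 0.247% of all signal in GFP-positive replicates 1 and 2, against 7.33% and 0.314% in GFP-negative replicates 1 and 2. Its share was high in the weakly enriched replicate 1 libraries of both sorts.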
